A study of Rattus norvegicus with 6 samples.

Results

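The genes described here are 10 genes of liver macrophages, measured in the liver of 6 male Sprague-Dawley rats: Marco, Cd163, Clec4f, Vsig4, Cd5l, Csf1r, Cd68, C1qa, C1qb and C1qc. They are 10 of the 15284 genes that the 1-colour array could name, and they were represented by 18 of its 61657 probes other than controls. The members were chosen by their lower signal with phenolphthalein in earlier results of these same arrays, so the difference between treatments is given for them as a description, without a test. All 10 genes passed the filter on dim probes, and all 18 probes were well above background on every array, so no member was lost to it. No member spot was saturated or carried an outlier mark.

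Each group held 3 animals, with 1 array per animal. Controls received corn oil, the vehicle, and the other rats received phenolphthalein, a pH indicator that was also sold as a laxative, dosed daily at 1000 mg per kg of body weight. The rats were 5 weeks old when bought, and the labels give the length of treatment as 9 weeks in one place and 28 days in another. RNA came from whole liver, and nothing in the labels names pooling. The 3 control arrays shared slide 1 and the 3 treated arrays shared slide 2, so slide and treatment cannot be told apart.

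Kupffer cells are the macrophages that live in the liver sinusoids, where they take up particles, microbes, aged red cells and modified proteins from portal blood. In rodents they are set apart from macrophages of most other organs by receptors such as Clec4f, while Csf1r, Cd68 and the 3 chains of C1q are shared by most tissue macrophages. C1q is the recognition molecule of the classical complement pathway, is built of A, B and C chains, and is made mainly by macrophages, unlike most complement proteins, which hepatocytes secrete.

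The start regions of 4 members are shown because these genes have the GAGGAA core of the macrophage transcription factor PU.1 within 250 bases before the transcription start. Capitals mark GAGGAA, or TTCCTC where it lies on the other strand. The sequences run 5′ to 3′ on the strand of the gene, end at the base before the annotated start, and come from RefSeq on assembly GRCr8. Marco lies on chr13:34201256-34201505 (minus strand), Cd5l on chr2:175088665-175088914 (plus strand), Cd68 on chr10:54882442-54882691 (minus strand) and C1qb on chr5:154407828-154408077 (minus strand).
Marco: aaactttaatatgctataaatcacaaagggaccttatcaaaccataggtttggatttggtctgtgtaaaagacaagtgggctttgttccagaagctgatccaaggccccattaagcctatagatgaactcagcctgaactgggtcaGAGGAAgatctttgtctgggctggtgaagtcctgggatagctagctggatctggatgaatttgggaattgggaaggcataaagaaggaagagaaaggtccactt
Cd5l: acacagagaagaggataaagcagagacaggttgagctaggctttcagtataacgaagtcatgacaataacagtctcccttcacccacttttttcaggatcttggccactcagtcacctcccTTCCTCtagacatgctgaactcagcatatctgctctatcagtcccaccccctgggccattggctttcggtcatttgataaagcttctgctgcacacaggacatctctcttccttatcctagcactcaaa
Cd68: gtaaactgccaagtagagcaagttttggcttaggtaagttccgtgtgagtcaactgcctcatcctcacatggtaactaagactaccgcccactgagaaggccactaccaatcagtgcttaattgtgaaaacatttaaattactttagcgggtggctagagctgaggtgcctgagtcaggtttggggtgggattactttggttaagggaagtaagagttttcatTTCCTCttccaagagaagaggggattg
C1qb: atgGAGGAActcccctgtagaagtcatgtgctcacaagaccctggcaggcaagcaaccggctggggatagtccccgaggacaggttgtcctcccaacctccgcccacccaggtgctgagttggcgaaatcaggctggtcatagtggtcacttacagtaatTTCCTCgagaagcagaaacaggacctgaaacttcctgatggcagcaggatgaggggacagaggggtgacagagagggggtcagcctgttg

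Of the 10 members, 9 were matched to a start region, all but C1qc. GAGGAA, searched on both strands over these 250 bases, was present in 5 of the 9, namely the 4 shown and Csf1r, and in 23.3% of 33469 start regions of the rat genome. The ETS core GGAAGT was present in 4 of the 9 (C1qa, C1qb, Cd68 and Clec4f) and in 19.2% of all regions, and it can overlap GAGGAA by its first bases. TGCTGA, part of the MAF recognition element, was present in C1qa, C1qb and Cd5l, against 15.1% of all regions. AGGTCA, a half-site of nuclear receptors, was present in Clec4f alone among the 9, against 14.1% of all regions. TATAAA was present in Marco alone among the 9, against 12.9% of all regions. A match is a description of letters and was not tested for binding.

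All 10 genes had a lower mean signal with phenolphthalein, as did all 18 of their probes, where 48.2% of the 11434 tested genes and 46.6% of the 39410 tested probes had a lower mean. The median log2 difference of the 10 members, phenolphthalein minus corn oil, was -0.64, with a lowest value of -1.45 for Marco and a highest of -0.50 for C1qb. The median over all tested genes was 0.01. In whole tissue, fewer cells of a type and less RNA per cell cannot be told apart. The signals below are log2 of the spot's processed intensity relative to the 75th percentile of its own array, so 0 stands for that percentile. A level of a probe is not set against that of another probe.

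**Figure D1:**
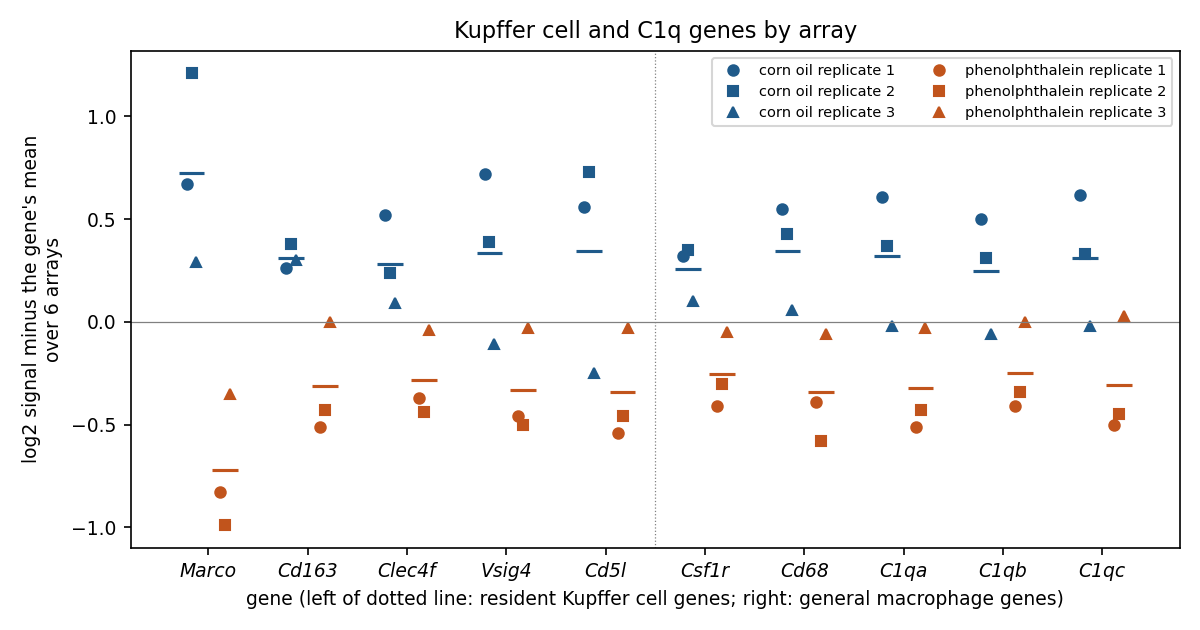
Log2 signal of each of the 10 genes on each of the 6 arrays, minus the gene's own mean over the arrays, from the brightest probe of each gene. Points are arrays, with the replicate given by the symbol, and short lines are group means. The corn oil points of Marco sit at 0.29 or above and its phenolphthalein points at -0.35 or below, while the triangles, replicate 3 of both groups, lie near 0 for the C1q chains, and cross for Cd5l, Vsig4, C1qb and C1qc.

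Marco, a collagen-like scavenger receptor that binds bacteria and modified lipoproteins, showed the widest separation. Its signal was 1.59, 2.12 and 1.21 in the controls, against 0.08, -0.08 and 0.57 in the treated rats. Every phenolphthalein array lay below every corn oil array, with a gap of 0.64 log2 units between the nearest pair, the third replicate of each group. The difference was -1.45 ± 0.28 (SE, n = 3 per group), which is 36.7% of the corn oil level. It was the 72nd lowest of the 11434 differences, and the gene has 1 probe.

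Cd163, which clears haemoglobin bound to haptoglobin, has 3 probes. Its brightest probe read 1.74, 1.86 and 1.78 in corn oil and 0.97, 1.05 and 1.47 with phenolphthalein. The corn oil arrays lay within 0.12 of each other and above all treated arrays, and the difference was -0.63 ± 0.15 (SE, n = 3 per group). The second probe differed by -0.52 ± 0.08 and also separated the groups. The third, at -0.38 ± 0.19, did not, since corn oil replicate 3 (-2.41) lay below phenolphthalein replicates 2 and 3 (-2.32 and -2.34).

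Clec4f, a C-type lectin used as a marker of Kupffer cells in rodents, has 1 probe. It read 6.58, 6.31 and 6.15 in corn oil and 5.70, 5.63 and 6.03 with phenolphthalein. The groups did not overlap, though the third replicates were 0.13 apart, and the mean was 67.6% of the corn oil mean, a log2 difference of -0.56 ± 0.16 (SE, n = 3 per group).

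Vsig4, the complement receptor of the immunoglobulin family that captures C3b-coated particles from blood, read 1.67, 1.34 and 0.84 in corn oil and 0.49, 0.45 and 0.92 with phenolphthalein. The groups overlapped, because phenolphthalein replicate 3 lay above corn oil replicate 3. The difference was -0.66 ± 0.24 (SE, n = 3 per group). Its single probe varied more between animals of a group (pooled SD 0.35) than that of Clec4f (0.22).

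Cd5l, a secreted scavenger protein of macrophages also known as AIM, had the widest spread in corn oil. The values of its brighter probe were 3.60, 3.76 and 2.79 in corn oil and 2.49, 2.57 and 3.00 with phenolphthalein. Corn oil replicate 3 lay 0.22 below phenolphthalein replicate 3, so the groups overlapped, while corn oil replicates 1 and 2 lay above all treated arrays. The difference was -0.69 ± 0.29 (SE, n = 3 per group), and -0.83 ± 0.34 on the second probe, whose groups overlapped too.

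Among the general macrophage genes, Csf1r, the receptor for the growth factors Csf1 and Il34, showed the least spread. It read 0.36, 0.39 and 0.15 in corn oil and -0.37, -0.26 and -0.01 with phenolphthalein. The groups did not overlap on this probe or on the second one, and the differences were -0.51 ± 0.13 and -0.42 ± 0.10 (SE, n = 3 per group).

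Cd68, a glycoprotein of the lysosome membrane, read 3.96, 3.84 and 3.48 in corn oil and 3.02, 2.83 and 3.35 with phenolphthalein. Both of its probes separated the groups, each with a gap of 0.13 between the third replicates. The difference was -0.69 ± 0.18 on the brighter probe and -0.64 ± 0.18 on the other (SE, n = 3 per group).

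The genes of the 3 C1q chains lie next to each other on the rat genome, and all 3 had a lower mean with phenolphthalein. C1qa read 5.30, 5.05 and 4.66 in corn oil and 4.17, 4.25 and 4.66 with phenolphthalein, so the third replicates met, with a gap of 0.0048. C1qb read 6.44, 6.26 and 5.89 against 5.54, 5.61 and 5.94. C1qc read 3.31, 3.02 and 2.67 against 2.19, 2.24 and 2.72. For C1qb and C1qc the third replicates crossed by 0.06, so their groups overlapped, while replicates 1 and 2 of the 2 groups stood well apart for all 3 chains. The log2 differences were -0.64 ± 0.21 for C1qa, -0.50 ± 0.18 for C1qb and -0.61 ± 0.22 for C1qc (SE, n = 3 per group). The second probes gave -0.65 for C1qa, -0.40 for C1qb and -0.56 for C1qc, and the groups overlapped on each of them. On that of C1qa, corn oil replicate 3 (3.79) lay below phenolphthalein replicate 3 (3.85). Ratios of the chains on the same array, centred on their means, were also compared. The ratio of C1qa to C1qb was 0.12, 0.06 and 0.04 in corn oil and -0.10, -0.09 and -0.02 with phenolphthalein, a difference of -0.14 with groups that did not overlap. The group means differed by -0.03 for C1qa to C1qc and by 0.11 for C1qb to C1qc, and the groups overlapped for both.

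**Figure D2:**
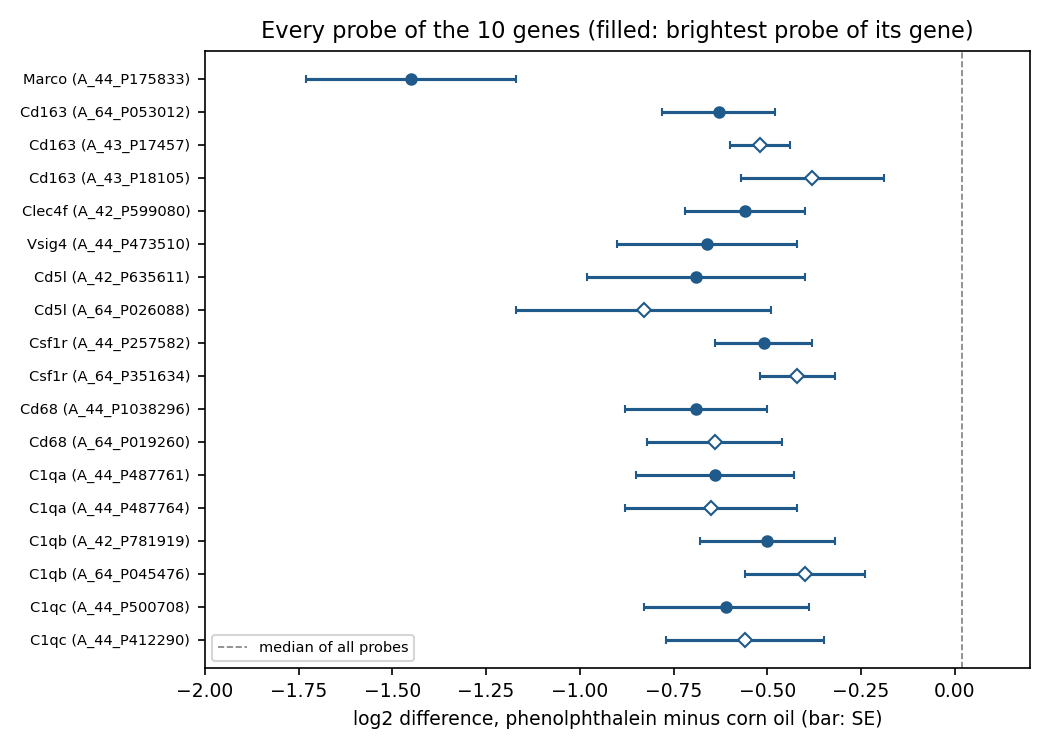
Log2 difference between phenolphthalein and corn oil for each of the 18 probes of the 10 genes, with the standard error of the fit over all probes as bars. Filled circles are the brightest probe of each gene, open diamonds its other probes, and the dashed line is the median of all 39410 probes, 0.02. All 18 probes lie between -1.45 and -0.38.

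For the 7 members with more than 1 probe, probes of the same gene differed from each other by 0.01 (C1qa) to 0.25 (Cd163) in their log2 difference between treatments. Their deviations from the group means, array by array, correlated at 0.89 to 1.00 in 6 of these genes and at 0.32 to 0.92 in Cd163, over 6 arrays. The weakest pair joined the brightest Cd163 probe with its dimmest one. Probes of a gene share the RNA of each animal, so these values describe the probes and not the animals.

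In limma's moderated test over all 11434 genes, with Benjamini-Hochberg adjustment at 0.05, 7 genes were called, which is 0.0612% of those tested, and 0 of the 10 members were among them. The count was 6 without phenolphthalein replicate 3, 1 without corn oil replicate 2 or phenolphthalein replicate 2, and 0 without any of the other 3 arrays. Over all 39410 probes 19 were called, 0.0482%, and 0 of the 18 member probes were among these. At an unadjusted limma p under 0.05 with a lower mean there were 9 members, all but Cd5l, against 8.11% of all genes. The highest treated array was below the lowest control array for 6 of the 10 members (Marco, Cd163, Clec4f, Csf1r, Cd68 and C1qa), against 11.0% of all genes, and for 9 of the 18 member probes, against 9.24% of all probes. These counts come from the contrast that chose the members and are given beside the background only. Without corn oil replicate 3, or without phenolphthalein replicate 3, the groups of all 10 members stood apart, against 15.8% and 18.0% of all genes. This follows by construction and uses the same contrast. In Vsig4, Cd5l, C1qb and C1qc only replicate 3 of corn oil and replicate 3 of phenolphthalein crossed, so leaving out either array removes the overlap. These arrays were singled out with the overlaps already seen. Leaving out any other array gave 6 members.

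Resident Kupffer cell genes were next set against general macrophage genes on the same arrays. The 5 resident genes (Marco, Cd163, Clec4f, Vsig4 and Cd5l), each centred on its own mean, averaged 0.55, 0.59 and 0.06 in the 3 controls, in the order of their replicate numbers, against -0.54, -0.57 and -0.09 in the 3 treated rats. The 5 general genes (Csf1r, Cd68, C1qa, C1qb and C1qc) averaged 0.52, 0.36 and 0.01, and -0.45, -0.42 and -0.02. The resident mean minus the general mean was 0.10 ± 0.11 in the controls against -0.10 ± 0.04 in the treated rats (SD, n = 3 each), a difference of -0.21. Marco carried most of it. With Marco left out, a choice made after the data were seen, the 4 other resident genes differed from the general genes by -0.045, with 0.02 ± 0.05 in corn oil and -0.02 ± 0.02 with phenolphthalein.

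Marco was also set against the mean of the 9 other members on each array, a choice made after the data were seen. This ratio, centred on its mean over the 6 arrays, was 0.16, 0.81 and 0.28 in corn oil and -0.37, -0.56 and -0.32 with phenolphthalein. The groups did not overlap, and the difference of -0.84 log2 units is the amount by which Marco was lower beyond the other members. Corn oil replicate 2 stood highest. For each of the other 9 members the mean it is set against includes Marco, which raises their values by construction, so these are not given. Among ratios to Cd68 that leave Marco out, the groups did not overlap for Clec4f (0.13 higher with phenolphthalein) and C1qb (0.19 higher). For Clec4f the third replicates met, both at 0.02 after rounding. The groups overlapped for Cd163, Vsig4, Cd5l and Csf1r.

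Animals of the same group also differed from each other, and these differences do not use the contrast that chose the members. On the brightest probes, corn oil replicate 3 had the lowest signal of its group for 9 of the 10 members, all but Cd163. This holds for 35.6% of all genes. Phenolphthalein replicate 3 had the highest signal of its group for all 10, which holds for 40.2% of all genes. Both held for 9 members, against 13.0% of all genes. Over the 18 member probes, corn oil replicate 3 was lowest on 17, including the other probes of Cd163. Phenolphthalein replicate 3 was highest on 17 probes, and both held on 16. The members share the RNA of each array, so they are not separate observations of these animals.

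To describe how alike the members varied, each gene's deviations from its 2 group means were correlated with the mean deviations of the members, leaving out the gene itself where it was a member. Over the 6 arrays the correlation was 0.97 for C1qb, 0.963 for C1qa, 0.954 for C1qc, 0.952 for Cd68, 0.94 for Csf1r, 0.938 for Vsig4, 0.913 for Cd5l, 0.895 for Clec4f, 0.772 for Marco and 0.628 for Cd163. The median was 0.939, against 0.102 over all genes. A correlation over 0.9 was seen for 7 of the 10 members and for 2.28% of all genes. Cd163 stood lowest on its brightest probe, whose corn oil arrays differed little from each other, with deviations of -0.05, 0.07 and -0.01. The deviations of this probe correlated at 0.64 and 0.32 with those of the other Cd163 probes, which correlated at 0.92 with each other. Corn oil replicate 2 had the highest deviation of its group for Marco (0.48), Cd5l, Csf1r and Cd163, and replicate 1 for Clec4f, Vsig4, Cd68 and the 3 C1q chains.

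**Figure D3:**
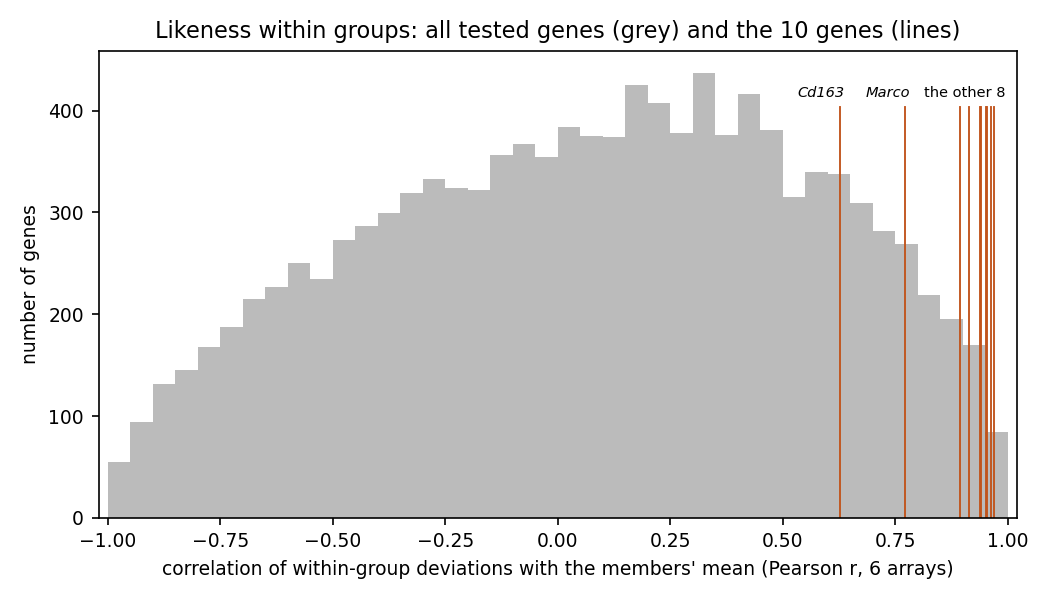
Number of tested genes (vertical axis) by the Pearson correlation, over 6 arrays, of their deviations from the group means with the mean deviations of the 10 members (horizontal axis). Grey bars are all other genes, and lines are the members, each against the mean of the other 9. The lines of 8 members lie between 0.895 and 0.97, with Marco at 0.772 and Cd163 at 0.628.

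The 5 genes outside the list with the closest pattern had correlations of 0.998 (Cyba), 0.998 (Brms1), 0.996 (Or4g16), 0.995 (Csn1s2b) and 0.993 (Mrps25). Cyba, a subunit of the phagocyte NADPH oxidase, had a log2 difference between treatments of -0.49 ± 0.10 (SE, n = 3 per group). For the other 4 that difference lay between -0.11 and 0.34. With 6 arrays and 2 group means removed, such a correlation rests on few free values, and these genes are the highest of 11434.

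The wider set of macrophage genes was described from lists that hold none of the 10 members. Of 21 tested general macrophage and monocyte genes, 19 had a lower mean with phenolphthalein, 0 were called in limma over all genes, and 11 lower and 1 higher had an unadjusted p under 0.05. Their median log2 difference was -0.51, against 0.01 over all genes, and ran from -0.65 to -0.37 when 1 array was left out. Their median likeness to the members was 0.90. Adgre1, the F4/80 antigen, read 1.30, 1.22 and 1.07 in corn oil and 0.26, 0.55 and 1.06 with phenolphthalein, a difference of -0.57 ± 0.21 (SE, n = 3 per group). The high-affinity IgG receptor gene Fcgr1a differed by -0.42 ± 0.18. Cd14, the co-receptor for bacterial lipopolysaccharide, went the other way, at 3.45, 3.16 and 2.39 in corn oil and 3.84, 4 and 3.62 with phenolphthalein, and all treated arrays lay above all corn oil arrays, by 0.82 ± 0.28. Itgam, the integrin chain CD11b of monocytes and neutrophils, stood well above background in 3 of 3 controls but in 1 of 3 treated rats, so its values are close to background.

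Other genes tied to Kupffer cell identity had a smaller median difference than the members, which were chosen for their lower signal. Of 8 tested, 8 had a lower mean, 0 were called in limma and 2 had an unadjusted p under 0.05, and the median was -0.28. Folr2, a folate receptor of resident macrophages, read 1.95, 1.65 and 1.52 in corn oil and 1.19, 1.43 and 1.58 with phenolphthalein, so the groups overlapped. The iron exporter Slc40a1 differed by -0.25 ± 0.14, and Nr1h3, the nuclear receptor LXR-alpha that hepatocytes also express, by -0.01 ± 0.09 (SE, n = 3 per group). Timd4 and Spic were not among the named genes of the array.

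Scavenger receptors other than the members had a median close to that of all genes. Of 13 tested, 9 had a lower mean, the median was -0.03 (0.046 with a median shift), limma called 0, and 1 had an unadjusted p below 0.05. Msr1, the class A receptor related to Marco, differed by -0.14 ± 0.23, with values of -0.22, -0.92 and -1 in corn oil and -0.72, -1.05 and -0.78 with phenolphthalein. The mannose receptor Mrc1, which sinusoidal endothelium also makes, differed by -0.03 ± 0.13, Cd36 by 0.13 ± 0.28 and the lipoprotein receptor Scarb1 by -0.02 ± 0.10 (SE, n = 3 per group). The groups overlapped for each of these 4.

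The proteases that C1q activates were described next. C1r differed by -0.20 ± 0.10 and C1s by -0.34 ± 0.11 (SE, n = 3 per group), and for both all treated arrays lay below all corn oil arrays. Corn oil replicate 3 was not low for them, at 6.24 for C1r against 6.26 and 6.03 in the other controls. The difference was 0.07 ± 0.13 for C4a and -0.16 ± 0.13 for C2, with overlapping groups. Over the 8 tested genes of the classical pathway beside C1q the median was -0.03 and the median likeness to the members -0.02, and limma called 0, with 1 at an unadjusted p under 0.05. Among receptors for complement fragments, C3ar1 differed by -0.72 ± 0.26, C5ar1 by -0.14 ± 0.24 and C5ar2 by 0.30 ± 0.30. Cd93, once described as a C1q receptor and made by endothelial cells, differed by -0.46 ± 0.14 and its groups did not overlap. The 8 tested genes of that list had a median of -0.03, limma called 0, and 2 had an unadjusted p under 0.05.

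Csf1, the main growth factor for Csf1r, read 0.40, -0.53 and -0.43 in corn oil and -0.72, -1.18 and -0.68 with phenolphthalein, a difference of -0.67 ± 0.28 (SE, n = 3 per group). The groups did not overlap, and corn oil replicate 1 stood apart from the other controls. Il34, its second ligand, differed by -0.09 ± 0.17 and Csf2ra by -0.09 ± 0.15. Over 6 tested genes of this axis the median was -0.11, limma called 0, and 1 lower and 1 higher had an unadjusted p under 0.05. Of 13 tested transcription factors of macrophages, 8 had a lower mean, the median was -0.21 (-0.025 with normexp, another background correction, and -0.012 without corn oil replicate 1), limma called 0, and 1 had an unadjusted p under 0.05. Spi1, which codes for PU.1, read -2.76, -2.62 and -2.72 in corn oil and -3.36, -3.50 and -3.16 with phenolphthalein, a difference of -0.64 ± 0.11 (SE, n = 3 per group) with groups well apart. Maf differed by -0.21 ± 0.16.

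Cd163 takes up complexes of haemoglobin with haptoglobin. The haptoglobin gene Hp was 0.23 ± 0.09 higher and Hmox1, which breaks down haem, -0.49 ± 0.20, and neither group pair overlapped (SE, n = 3 per group). Over 10 tested genes of haemoglobin and haem scavenging the median was -0.06 (0.021 with a median shift), limma called 0, and 1 had an unadjusted p under 0.05.

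Markers of other cell types gave these values beside the members. Of 12 hepatocyte markers, all well above background, 4 had a lower mean, the median was 0.04 (-0.039 with quantile normalization), and the summed signal was 98.2% to 104% of the corn oil mean on corn oil arrays and 102% to 104% on phenolphthalein arrays, so the tissue carried the markers of liver. Of 10 sinusoidal endothelial markers, 9 had a lower mean. Their median was -0.10 (-0.017 with a median shift), with summed signals of 98.0% to 103% and 88.3% to 98.3%. For 10 tested T, B and NK cell markers the mean was lower for all, the median was -0.46 (-0.288 with normexp) and the summed signal 91.2% to 106% against 61.2% to 76.8%. For 7 tested MHC class II genes the median was -0.57 and the sums 95.1% to 109% against 61.0% to 65.5%, and for 6 tested dendritic cell markers the median was -0.68 (-0.232 with normexp) and the sums 81.9% to 118% against 56.1% to 59.8%. Xcr1, Itgae and Klrb1, markers of dendritic cells and NK cells, were not well above background on any array. In limma 0 genes of these lists were called over all genes. At an unadjusted limma p under 0.05, 6 lymphocyte, 6 MHC class II, 4 dendritic cell and 2 sinusoidal endothelial genes were lower. This held for 0 hepatocyte markers and for 8.11% of all genes. The part of these other leukocytes in the members' values was not tested.

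**Figure D4:**
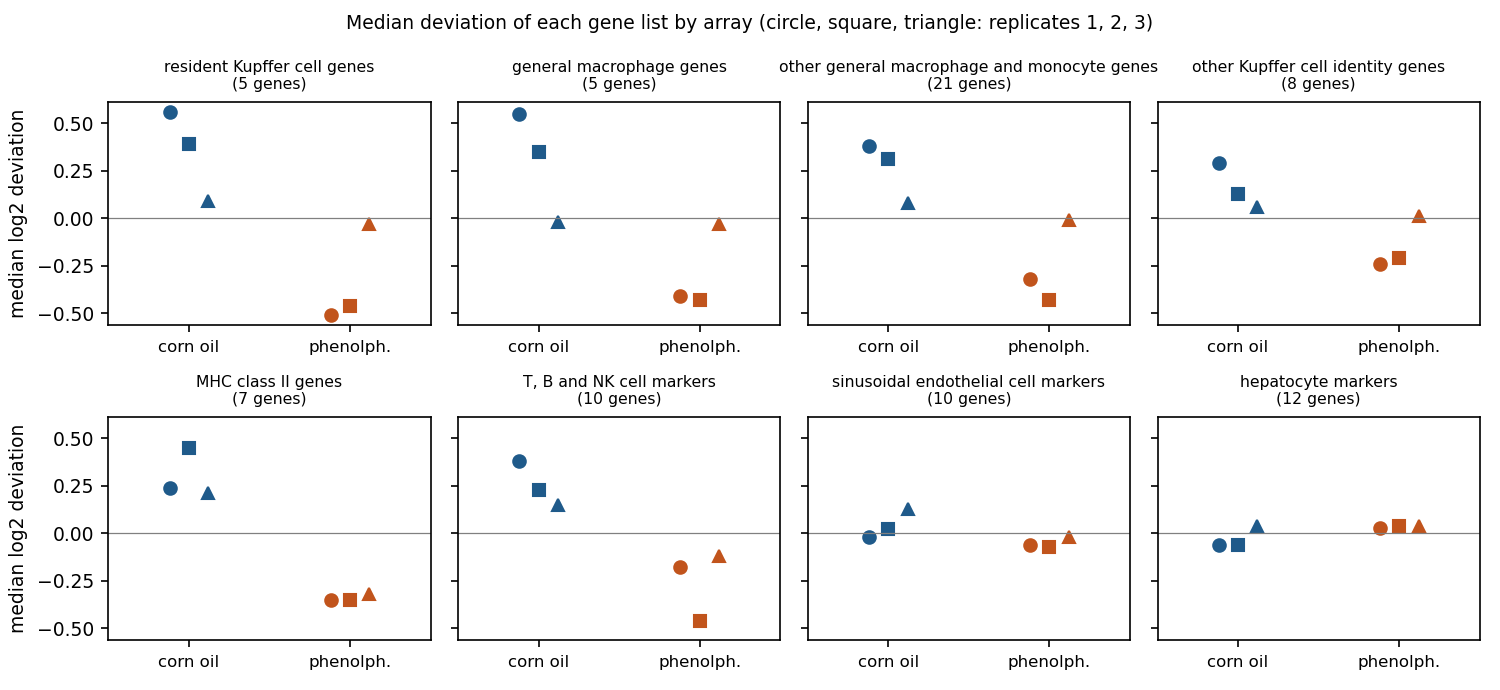
Median log2 deviation of the genes of each list from their own means, on each array, for the resident and the general members and 6 other lists. Circles, squares and triangles are replicates 1, 2 and 3. The triangles of both groups lie within 0.12 of each other for the macrophage lists, while for MHC class II genes they lie at 0.21 in corn oil and -0.32 with phenolphthalein.

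The MHC class II genes, which macrophages share with dendritic and B cells, had a median difference of -0.57 beside the members' -0.64. Their median deviations were 0.24, 0.45 and 0.21 in corn oil and -0.35, -0.35 and -0.32 with phenolphthalein, where the resident members had 0.56, 0.39 and 0.09, and -0.51, -0.46 and -0.03. Their median likeness to the members within groups was 0.33, against 0.90 for the other general macrophage genes, 0.47 for lymphocyte markers, 0.57 for dendritic cell markers, -0.04 for sinusoidal endothelial markers and -0.37 for hepatocyte markers. Red cell markers had a median likeness of -0.44 and a median log2 difference between treatments of -0.10, with summed signals of 85.3% to 123% and 82.8% to 102%. Neutrophil markers had a median difference of 0.22 over 6 tested genes (0.023 without phenolphthalein replicate 3 and 0.001 without the filter on dim probes). S100a8 differed by 0.51 ± 0.30 and S100a9 by 0.57 ± 0.28 (SE, n = 3 per group), with overlapping groups for both. Camp went the other way, at -0.39 ± 0.09, with groups that did not overlap. Csf3r differed by -0.13 ± 0.21 with overlapping groups. In limma 1 neutrophil marker was lower and 0 were higher at an unadjusted p under 0.05. Bile duct markers had a median difference of 0.29 over 7, which was 0.099 without corn oil replicate 2, 0.159 without phenolphthalein replicate 3 and 0.13 without the filter on dim probes. Stellate cell markers had one of -0.09 over 10, which became -0.029 with corn oil replicate 1 left out and -0.233 with phenolphthalein replicate 1 left out. Of these 10 stellate cell markers, 9 had a lower mean.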

How the data were processed

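Liver RNA labelled with Cy3 was hybridised to 1-colour Agilent arrays. The deposited scanner files give spot intensity, which Agilent Feature Extraction (10.7.1.1 per the file headers, 10.7 in the submitters' processing notes) corrected for background and spatial trend, without scaling across arrays. In the table that the authors deposited each value is a signal equal to that intensity divided by 1 factor per array, found by comparison with the scanner values, so it is linear and not centred, and was used as an alternative. Its column medians were 0.0984, 0.101 and 0.102 for corn oil and 0.0954, 0.0941 and 0.0959 for phenolphthalein replicates 1 to 3.

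Values are log2 of the processed signal minus that of the array's 75th percentile. Outlier spots were set missing, and a probe was kept if 3 or more of the 6 arrays showed it well above background. Accessions were matched to RefSeq symbols (GRCr8, names and start regions; the array design uses another build), which named 27460 probes, left 34197 unnamed and gave several genes for 0. A gene was represented by its brightest probe over all arrays. Genes and, separately, all probes were fitted with limma 3.58.1 (R 4.3.3), through lmFit and eBayes, with the treated minus the control mean as contrast. The code was tested on simulated data. SD is over arrays, SE from the fit, and precision is limited by the number of arrays.

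The members and lists were chosen with earlier results of these data known. Named were all members, the first 4 tested genes of each list as written, or fewer, and the 5 genes most alike within groups, except that Xcr1, Itgae and Klrb1 were named after their values were seen, and that Timd4 and Spic, which had no value, were named as not among the array's named genes. The values of 1 listed gene are not reported here. Alternatives were normexp (median spot and background signals, offset 50), quantile normalization, a median shift, other filters, marked spots kept, masking of array columns with dim spots, averaging all probes of a gene, eBayes with trend and robust prior, unnamed probes tested together with named genes, the authors' table, leaving out arrays in turn, and a replicate block.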

Additional observations from a re-analysis of the deposited data

How the results depend on the processing

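All 10 members had a lower mean with phenolphthalein under each of the 16 alternative settings. No member's difference moved by more than its spread between arrays, but most settings could not show such a move. The other filters, kept marked spots, masked columns and replicate block left the members' differences unchanged, and the authors' table is the same intensity rescaled. Leaving out 1 array cannot move a difference by more than that spread. Only normexp, quantile normalization, the median shift and, for the 7 members with more than 1 probe, averaging of probes could have done so. The median over the members ran from -0.80 to -0.49 when 1 array was left out and the resident minus general difference from -0.246 to -0.143, but without Marco the latter was -0.045. The members' median likeness within groups ran from 0.913 to 0.964 without 1 array. The number of members whose groups did not overlap ran from 6 to 10 without 1 array, was 5 with a median shift or when all probes of a gene were averaged, and was 8 with quantile normalization. The number of genes called over the whole array ran from 0 to 6 and of probes from 0 to 5 without 1 array. With the replicate number as a block (replicate block), limma called 0 genes and 0 probes, with 1495 and 4507 at an unadjusted p under 0.05. Same-numbered arrays did not deviate together (correlations of -0.025, 0.017 and -0.003 over genes). With so few arrays this does not settle whether the numbers pair the animals. Without the filter on dim probes limma called 0 probes, with 5708 at an unadjusted p under 0.05. The median of hepatocyte markers became -0.039 with quantile normalization, and with a median shift, which moves the median of all genes to 0.089, that of the other scavenger receptors became 0.046 and that of haem scavenging genes 0.021. With 1 array left out, the medians of the other scavenger receptors, the classical pathway, the complement receptors, the CSF1 axis and the red cell markers fell on both sides of 0. The cause of these changes was not tested.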
